A study of Mus musculus with 21 samples.

Results

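The annexin A genes were followed across mouse livers of 2 genotypes before and after a partial resection. A gene was taken as a member where the array's platform annotation gives it the symbol Anxa with a number, which held for 12 genes and 21 probe sets. Of these genes, 11 had at least 1 probe set annotated to them alone (20 probe sets), out of 12393 genes named this way in all. The family was chosen by the differences of Anxa5 and Anxa2 between knockout and control liver on day 0, which were known from earlier results of these data. Values of the day 0 comparison are therefore given as a description, without p-values. Counts of genes past the threshold on day 0 stand beside the share of all genes, and nothing is supported with them. Anxa1, Anxa2, Anxa3, Anxa4, Anxa5, Anxa6 and Anxa7 exceeded a log2 value of 4 on at least 3 arrays and were tested, 7 of 7320 genes tested. Anxa8, Anxa9, Anxa10 and Anxa13 did not exceed it and are given as values. The probe set of Anxa11 is also annotated to the predicted genes Gm2274 and Gm2260, so Anxa11 was not analysed here.

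Each sample was total liver RNA of a male mouse aged 9 months, hybridised to 1 Affymetrix array. KO mice were Mdr2-/- of strain FVB129P2. They lack the product of Abcb4, the canalicular pump that moves phospholipid into bile. Control mice were labelled FVB129P2/FVBNJ, so genotype and strain background cannot be told apart. All mice had a 30% partial hepatectomy, the lobe removed at surgery is the day 0 sample, and the remaining liver was sampled on day 2 or day 6. There were 6 KO and 3 control samples on day 0, and 3 samples of each genotype on day 2 and on day 6. The 6 later KO samples come from the same mice as the day 0 lobes, so the later days are not independent of the choice of the family. Among control mice, 263 and 265 gave samples on days 0 and 2, and 303 on days 0 and 6, while 264, 392 and 393 gave a later sample only.

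Annexins are cytosolic proteins that bind to negatively charged membrane phospholipids, phosphatidylserine above all, when calcium rises. They share a core of repeated calcium-binding domains and differ in a short amino-terminal tail, to which S100 proteins and other partners attach. They take part in membrane repair, vesicle traffic, calcium-dependent membrane links to actin and, outside the cell, in clotting and inflammation. In normal liver, several annexins are known mainly from bile duct, stellate and immune cells rather than from hepatocytes.

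The level of Abcb4 ranged from 7.25 to 8.96 on KO arrays and from 9.23 to 10.33 on control arrays, which did not overlap. Array medians lay between 3.80 and 4.10. The mean of the 8 hepatocyte markers on the array, of 10 listed, lay between 13.26 and 13.70 on the log2 scale over all arrays. On day 2 it was 13.56 to 13.69 in KO and 13.26 to 13.28 in control liver, which did not overlap, and control day 0 was 13.46 to 13.56. Of the 8 markers, 1 was called higher in KO on day 2, beside 2.75% of all genes. The part of this shift in the annexin differences was not tested. On 3 arrays the Gapdh probe set near the 3′ end exceeded the one near the 5′ end by more than 1 on the log2 scale, a sign of shortened RNA: control day 2 of mouse 265 (9.50), KO day 0 of mouse 337 (2.03) and control day 2 of mouse 263 (1.58). These hold 2 of the 3 control arrays of day 2. On the other arrays the difference was at most 0.94.

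The start regions of the 3 annexins on which the comparisons turn are shown so that their sequences can be set against their levels. Anxa5 and Anxa2 were high on all KO arrays, and Anxa1 was called higher in controls on day 2 than on day 0. Each region is the 250 bases before the annotated start, 5′ to 3′ on the gene's strand, from RefSeq on GRCm38.p6. Capitals mark matches to any of 6 motifs searched on both strands, with N for any base. The AP-1 motif was TGANTCA. The TEAD motif was GGAATG. The SP1 motif was GGGCGG. The E-box was CACGTG. The TATA box was TATAAA. The sixth was the CCAAT box, spelled as its name. Anxa5 lies at chr3:36475888-36476137 on the minus strand, Anxa2 at chr9:69453433-69453682 on the plus strand and Anxa1 at chr19:20390672-20390921 on the minus strand.
Anxa5: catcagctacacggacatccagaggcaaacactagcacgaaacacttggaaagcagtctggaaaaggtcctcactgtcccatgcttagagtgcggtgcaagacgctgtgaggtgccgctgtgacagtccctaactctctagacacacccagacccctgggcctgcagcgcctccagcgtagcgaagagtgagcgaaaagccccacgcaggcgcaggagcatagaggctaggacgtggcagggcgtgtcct
Anxa2: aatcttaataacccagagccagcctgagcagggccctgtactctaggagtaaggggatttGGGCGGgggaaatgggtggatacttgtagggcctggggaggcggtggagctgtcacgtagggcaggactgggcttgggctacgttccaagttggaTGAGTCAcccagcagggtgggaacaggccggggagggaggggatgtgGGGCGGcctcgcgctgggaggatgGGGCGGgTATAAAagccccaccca
Anxa1: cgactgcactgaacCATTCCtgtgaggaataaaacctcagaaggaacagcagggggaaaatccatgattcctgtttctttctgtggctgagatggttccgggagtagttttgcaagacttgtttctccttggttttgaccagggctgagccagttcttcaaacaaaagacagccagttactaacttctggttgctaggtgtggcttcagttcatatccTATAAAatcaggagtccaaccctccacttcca

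The Anxa2 window held 1 AP-1 match, TGAGTCA, from 95 to 89 bases before the start. It also held 3 SP1 matches and a TATA box from 17 to 12 bases before the start. The Anxa1 window held a TATA box from 32 to 27 bases before the start and 1 TEAD match read from the opposite strand. The Anxa5 window held none of the 6 motifs, which says only that these letters are not in this window. Among all 32851 windows of this length, 6.75% held AP-1, 12.6% TEAD, 32.7% SP1, 6.02% the E-box, 12.4% the TATA box and 33.8% the CCAAT box. The GC share was 58.8% for Anxa5, 62.4% for Anxa2 and 46.0% for Anxa1, against a median of 52.4% over all windows. Windows were given for 8 annexins, 11 windows in all, and not for Anxa3, Anxa6 or Anxa13. Anxa10, which stayed near background on all 21 arrays, held 2 AP-1 matches and a TATA box. These matches are a description of the letters and were not tested against the levels.

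**Figure D1:**
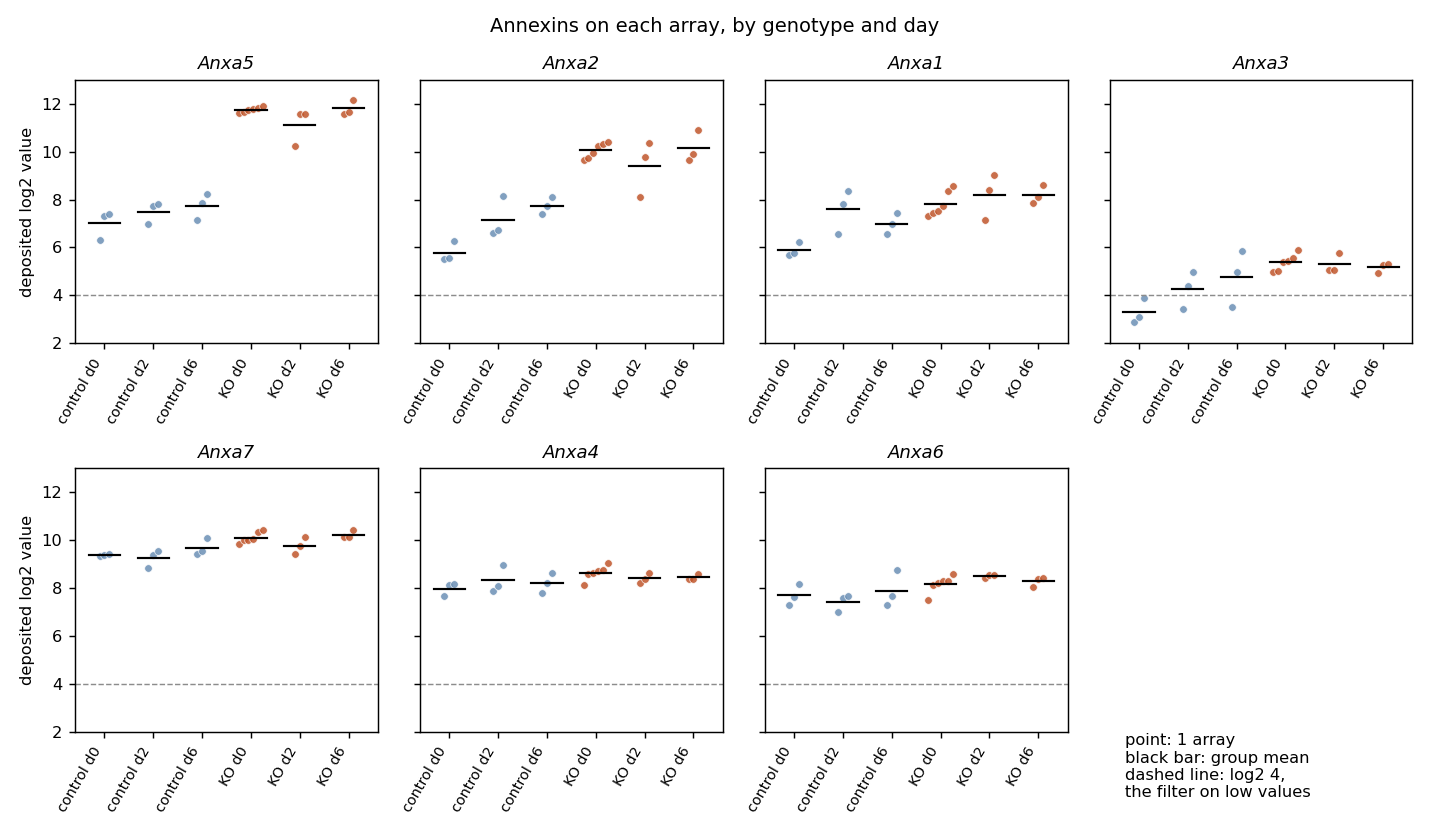
Deposited log2 values (y axis) of the 7 tested annexins by genotype and day (x axis), where each point is 1 array, black bars are group means and the dashed line is log2 4. Anxa5 and Anxa2 lie far higher in KO than in control liver on day 0, Anxa3 of control liver on day 0 lies under the line, and Anxa4, Anxa6 and Anxa7 differ by less than 1 on day 0.

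Anxa5 and Anxa2 were the annexins with the widest gap between genotypes on all 3 days, and Anxa5 was the more constant. Anxa5 is the phosphatidylserine-binding annexin that is used as a stain for dying cells. Its level in control liver was 7.38, 7.30 and 6.33 on day 0 in mice 263, 265 and 303. It was 6.96, 7.81 and 7.73 on day 2 in mice 263, 264 and 265, and 8.24, 7.13 and 7.87 on day 6 in mice 303, 393 and 392. In KO liver it ran from 11.62 to 11.90 on day 0 with a median of 11.76. The KO values were 10.23, 11.57 and 11.59 on day 2 in mice 250, 254 and 258, and 11.67, 11.57 and 12.17 on day 6 in mice 312, 332 and 337. Every KO array was higher than every control array, the nearest values being 10.23 and 8.24. The 6 KO livers of day 0 differed among themselves by 0.103 (SD, n = 6), against 0.584 for the 3 control livers.

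The difference of Anxa5 on day 0 was 4.75 ± 0.31 (SE), or 26.9-fold. On day 2 Anxa5 was higher in KO by 3.63 ± 0.36 (SE, n = 3 per group), or 12.4-fold, with an adjusted p of 1.38e-05 by limma over all genes tested. On day 6 it was higher by 4.06 ± 0.36, or 16.6-fold, with an adjusted p of 1.91e-06. Both later differences passed the threshold of 0.05 under each of 32 alternatives, with adjusted p up to 0.0476 on day 2 and 0.00944 on day 6. In whole-liver RNA, a change in the number of cells of a type and a change in the RNA of each cell cannot be told apart.

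Anxa2 forms a tetramer with S100a10 at the plasma membrane, where it binds plasminogen and its activator. Its control values on day 0 were 6.28, 5.50 and 5.55 in mice 263, 265 and 303. On day 2 they were 6.60, 8.16 and 6.72 in mice 263, 264 and 265, and on day 6 they were 7.73, 7.41 and 8.09 in mice 303, 393 and 392. In KO liver the day 0 values ran from 9.67 to 10.41 with a median of 10.09. The KO values were 8.12, 9.78 and 10.36 on day 2 in mice 250, 254 and 258, and 9.91, 9.65 and 10.91 on day 6 in mice 312, 332 and 337. The genotypes did not overlap on days 0 and 6. On day 2 they did, since KO mouse 250 (8.12) lay just under control mouse 264 (8.16).

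The difference of Anxa2 on day 0 was 4.28 ± 0.42 (SE), or 19.4-fold. It was 2.26 ± 0.49 on day 2, or 4.79-fold, with an adjusted p of 0.0149, and 2.41 ± 0.49 on day 6, or 5.33-fold, with an adjusted p of 0.0120. The call on day 2 ended without the 3 arrays of high Gapdh difference, where the difference was 1.26 (adjusted p = 0.582) and 1 control array of day 2 was left, which is assumed to vary like the other groups. It also ended without KO mouse 254 (2.08, adjusted p = 0.0809), without KO mouse 258 (1.79, 0.0745), with array weights (2.09, 0.084) and in a fit of the 2 groups alone (2.26, 0.293). The call on day 6 ended without KO mouse 337 (2.04, adjusted p = 0.0961), without control mouse 393 (2.25, 0.0641) and in a fit of the 2 groups alone (0.0619). Anxa5 on day 2 without the 3 arrays was 3.32 (adjusted p = 0.00625).

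**Figure D2:**
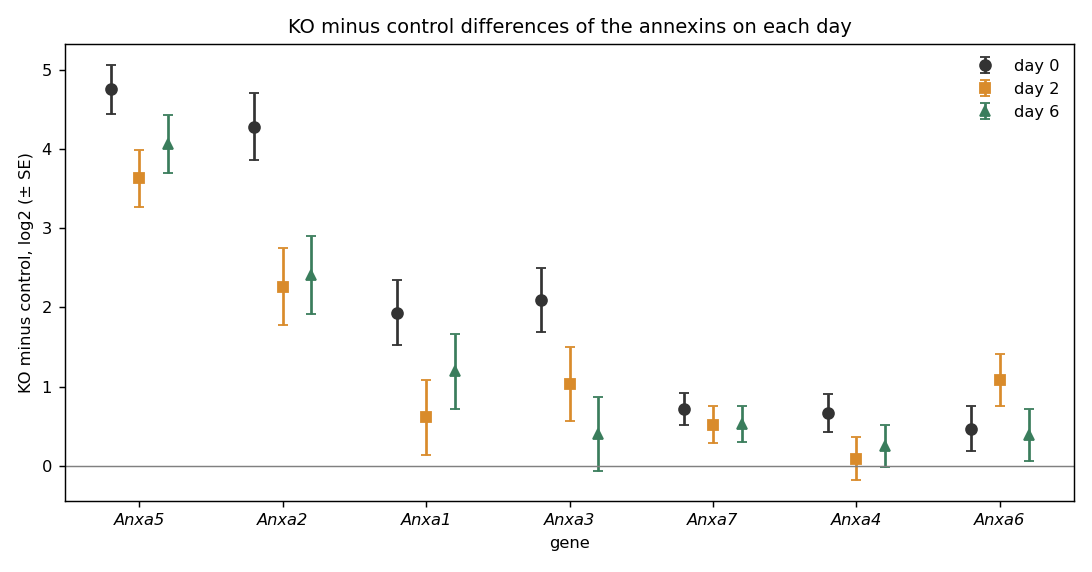
Differences of KO minus control on the log2 scale (y axis) for the 7 tested annexins (x axis) on day 0, day 2 and day 6, with bars of 1 SE from the limma model. Anxa5 stays above 3 on each day, Anxa2 goes from 4.28 on day 0 to 2.26 and 2.41, and the other annexins are at most 1.19 on days 2 and 6.

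Of the annexins other than Anxa5 and Anxa2, Anxa1 and Anxa3 had the next largest gaps on day 0. Anxa1 is an anti-inflammatory annexin that acts through formyl peptide receptors and is abundant in neutrophils and macrophages. Its control values were 6.23, 5.70 and 5.75 on day 0 in mice 263, 265 and 303, 6.58, 8.36 and 7.82 on day 2 in mice 263, 264 and 265, and 7.43, 6.57 and 6.98 on day 6 in mice 303, 393 and 392. In KO liver it ran from 7.32 to 8.57 on day 0 with a median of 7.64. It was 7.14, 8.41 and 9.03 on day 2 in mice 250, 254 and 258, and 8.11, 7.86 and 8.59 on day 6 in mice 312, 332 and 337. All KO arrays were above all control arrays on days 0 and 6, whereas on day 2 the genotypes overlapped. The difference was 1.93 ± 0.41 (SE) on day 0. On day 2 it was 0.61 ± 0.47 (adjusted p = 0.451) and on day 6 it was 1.19 ± 0.47 (adjusted p = 0.268), neither past the threshold.

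Anxa3, which is known from progenitor and myeloid cells, lay close to the filter of log2 4 in control liver. Its control values on day 0 were 3.89, 3.11 and 2.88 in mice 263, 265 and 303, all under log2 4 and near background. They were 3.44, 4.38 and 4.98 on day 2 in mice 263, 264 and 265, and 5.84, 3.51 and 4.99 on day 6 in mice 303, 393 and 392. In KO liver it lay between 4.95 and 5.91 on all 12 arrays. The difference of 2.09 ± 0.40 (SE) on day 0 is therefore a bound and not a measured size. The gap was 1.03 ± 0.47 on day 2 (adjusted p = 0.184), where the genotypes did not overlap, and 0.40 ± 0.47 on day 6 (adjusted p = 0.819), where they did.

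The other 3 annexins exceeded log2 4 on all 21 arrays, and none of their gaps passed the test on day 2 or 6. The largest of these gaps was that of Anxa6 on day 2. Anxa7, an annexin of secretory vesicle fusion, ran from 8.83 to 10.09 on control arrays and from 9.41 to 10.42 on KO arrays. Its differences were 0.72 ± 0.20 (SE) on day 0, 0.52 ± 0.23 on day 2 (adjusted p = 0.171) and 0.53 ± 0.23 on day 6 (adjusted p = 0.328). Anxa4, an annexin of secretory epithelia such as bile ducts, ran from 7.67 to 8.98 on control arrays and from 8.14 to 9.04 on KO arrays. Its differences were 0.67 ± 0.24 on day 0, 0.09 ± 0.27 on day 2 (adjusted p = 0.883) and 0.25 ± 0.27 on day 6 (adjusted p = 0.803). Anxa6, the annexin with a doubled core that acts in endosome and cholesterol traffic, ran from 7.0 to 8.74 on control arrays and from 7.51 to 8.60 on KO arrays. Its differences were 0.47 ± 0.28 on day 0, 1.08 ± 0.33 on day 2 (adjusted p = 0.0566) and 0.39 ± 0.33 on day 6 (adjusted p = 0.716). On day 2 the 3 KO values of Anxa6, 8.42 to 8.55, all exceeded the 3 control values, 7.0 to 7.67. Over 32 alternatives this difference ran from 0.87 to 1.21, and in 26 of them it was not called. It passed without KO day 0 mouse 332 (adjusted p = 0.0458), control day 2 mouse 264 (0.041) or control day 6 mouse 303 (0.026) or 392 (0.044). The control day 2 arrays of mice 263 and 265 are arrays of high Gapdh difference.

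On day 0, 5 of the 7 annexins had an adjusted p under 0.05, all higher in KO, beside 9.66% of all genes in either direction and 6.79% higher in KO. The same 5 (Anxa1, Anxa2, Anxa3, Anxa5 and Anxa7) did not overlap between genotypes, which held higher in KO for 11.6% of all genes. The rule used this comparison, so nothing is read from these counts. On day 2, 2 of 7 were called, Anxa5 and Anxa2, beside 5.71% of all genes and 2.75% higher in KO. On that day 3 annexins did not overlap (Anxa3, Anxa5 and Anxa6), beside 8.28% of all genes higher in KO. On day 6, 2 of 7 were called, again Anxa5 and Anxa2, beside 1.73% of all genes and 1.24% higher in KO. There 4 annexins did not overlap (Anxa1, Anxa2, Anxa5 and Anxa7), beside 8.63% of all genes higher in KO. The 2 genes called on days 2 and 6 are those that chose the family, and the later KO samples come from the day 0 mice. No other annexin was called on these days, so these counts are no result about the family. All 7 differences were positive on each day, beside 51.7%, 46.9% and 46.8% of all genes on days 0, 2 and 6. Some signs changed under alternatives, where the lowest differences were −0.17 for Anxa1 and −0.14 for Anxa4 on day 2 and −0.23 for Anxa3 on day 6. The medians of the 7 were 1.93, 1.03 and 0.53 on days 0, 2 and 6, against 0.02, −0.03 and −0.03 over all genes tested. The 7 hold the 2 genes that chose the family, so nothing is read from these signs and medians. The counts of called annexins without the arrays of doubtful RNA were 5, 1 and 2.

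Stellate cell and bile duct marker sets also had higher means in KO liver, though the stellate ranges overlapped on day 2. The mean of the 12 markers of stellate cells and myofibroblasts lay between 4.78 and 4.82 on control day 0 arrays and between 6.41 and 7.95 on KO day 0 arrays. On day 2 the genotypes overlapped, from 5.45 to 6.34 in control and from 6.28 to 7.95 in KO liver. On day 6 the mean lay between 5.21 and 5.70 against 6.42 and 7.96. Of the 10 tested markers of this set, 8, 3 and 1 were called higher in KO on days 0, 2 and 6. Of all genes, 6.79%, 2.75% and 1.24% were. Des and Lrat never exceeded log2 4. The mean of 9 of 11 bile duct and progenitor markers on day 0 was 5.21 to 5.44 on control arrays against 6.58 to 7.45 on KO arrays. It lay between 5.87 and 6.4 against 6.44 and 6.77 on day 2, and between 5.73 and 6.00 against 6.51 and 7.16 on day 6. Of 7 tested, 5, 2 and 2 were called higher in KO, beside the same shares of all genes. The mean of the 11 macrophage markers overlapped on day 0, from 7.05 to 7.86 in control and from 7.53 to 8.08 in KO liver. The part of these cell types in the annexin differences was not tested.

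After resection Anxa1 was called higher in control liver on day 2, and Anxa2 had higher values there. In KO liver 0 annexins were called between days, beside 0%, 0.137% and 0.123% of all genes in the 3 comparisons. The difference between genotypes in the day 2 response of Anxa1 did not pass the test (adjusted p = 0.333 by limma). The control day 0 arrays also entered the choice of the family through Anxa2 and Anxa5, so differences from day 0 in controls are not independent of that choice, and for these 2 genes no rise is claimed from their p. Anxa1 was higher on day 2 than on day 0 in controls by 1.69 ± 0.47 (SE, n = 3 per group), or 3.23-fold, with an adjusted p of 0.0322. The Anxa2 difference between day 6 and day 0 was 1.97 ± 0.49, or 3.91-fold, with an adjusted p of 0.0359. These were the single annexins past the threshold, 1 of 7 on day 2 beside 9.51% of all genes and 1 of 7 on day 6 beside 2.86%. Between days 2 and 6 of controls 0 of 7 were called by limma, beside 1.94% of all genes called. At an unadjusted p under 0.05 there were 0 of 7 annexins, beside 21.7% of all genes.

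Several other control changes did not pass. Anxa2 differed by 1.38 ± 0.49 on day 2 (adjusted p = 0.0786), though its groups did not overlap. It passed without KO day 2 mouse 250 (1.38, adjusted p = 0.0371) or control day 2 mouse 263 (1.66, 0.049). Anxa3 differed by 1.49 ± 0.47 on day 6 (adjusted p = 0.0973), and by 2.12 without control mouse 393 (adjusted p = 0.00719). Anxa1 differed by 1.10 ± 0.47 on day 6 (adjusted p = 0.236) and Anxa5 by 0.74 ± 0.36 on day 6 (adjusted p = 0.316). In mouse 303, the control sampled on both days 0 and 6, Anxa3 went from 2.88 to 5.84, Anxa2 from 5.55 to 7.73 and Anxa5 from 6.33 to 8.24. The macrophage marker mean of that day 6 array was 10.24, the highest of the study. Its Gapdh difference was 0.94, just under the limit of 1. The same difference of the actin probe sets was 2.72, against 2.48 on the KO day 0 array of mouse 337. The part of macrophages or of shortened RNA in these values was not tested.

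Both control calls depended on single arrays. The Anxa1 call on day 2 ended without control mouse 264 (1.31, adjusted p = 0.0772), without the day 0 or the day 2 array of mouse 265 (0.107 each) and without the day 0 array of mouse 303 (0.0995). It also ended with the mouse as a fixed block (1.24, adjusted p = 0.434), with no filter (0.0595), in a fit of the 2 groups alone (0.173) and without the arrays of high Gapdh difference (2.47, 0.0553). The Anxa2 call on day 6 ended without the day 0 array of mouse 263 (0.0501), of 265 (0.147) or of 303 (0.125), and without the day 6 array of mouse 303 (0.0645) or 392 (0.158). It also ended with the mouse as a fixed block (2.18, adjusted p = 0.551), with no filter (0.0727), with quantile normalization (1.85, 0.0523), in a fit of the 2 groups alone (0.0555) and with the mean of the probe sets of Anxa2 (0.65, 0.0733). The mean of the 8 neutrophil markers on the array lay between 2.86 and 3.94 in controls on day 0, between 4.93 and 6.01 on day 2 and between 4.49 and 5.75 on day 6. Of 4 neutrophil markers tested, 3 were called higher on day 2 and 1 on day 6. Of all genes, 9.51% and 2.86% were called in either direction. The markers Mpo, Elane, Camp and Ltf never exceeded log2 4. The part of neutrophils in the Anxa1 difference on day 2 was not tested.

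**Figure D3:**
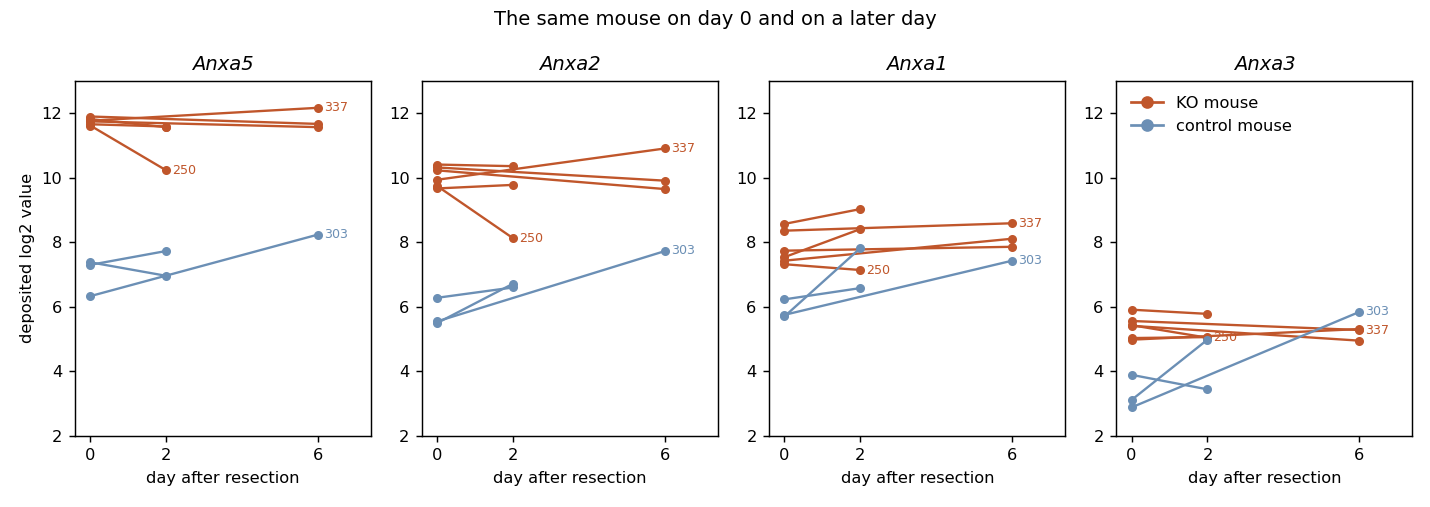
Deposited log2 values (y axis) of Anxa5, Anxa2, Anxa1 and Anxa3 in mice sampled on day 0 and again on day 2 or 6 (x axis), with 1 line per mouse and mice 250, 337 and 303 labelled. KO mouse 250 is lower on day 2 in Anxa5 and Anxa2, KO mouse 337 has the highest Anxa5 and Anxa2 on day 6, and control mouse 303 is higher on day 6 in all 4 genes.

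In KO liver, 0 of 7 annexins were called on day 2 against day 0, beside 0% of all genes. On day 6 against day 0 and on day 6 against day 2 the count was also 0 of 7 by limma, beside 0.137% and 0.123% of all genes. In these 3 comparisons 0 annexins had an unadjusted p under 0.05, against 439, 398 and 365 of all genes. The interval of the Anxa5 difference on day 6 against day 0 ran from −0.62 to 0.72 (95%), and that of Anxa2 from −0.80 to 1.01. On day 2 against day 0 Anxa5 differed by −0.62 ± 0.31 (SE, 95% interval −1.29 to 0.04, adjusted p = 0.877 by limma). All its day 2 values, at most 11.59, lay under all its day 0 values, at least 11.62. From day 0 to day 2, Anxa5 went from 11.62 to 10.23 in mouse 250, from 11.82 to 11.57 in mouse 254 and from 11.66 to 11.59 in mouse 258. Anxa2 went from 9.74 to 8.12 in mouse 250, from 9.67 to 9.78 in mouse 254 and from 10.41 to 10.36 in mouse 258. Mouse 250 thus stood apart on day 2, with the lowest KO values of the study for Anxa1, Anxa2, Anxa5 and Anxa7. Its stellate cell marker mean on day 2, 6.28, was also the lowest of the KO arrays, and on day 0 that mean was 6.41 in the same mouse. The part of these cells in its annexin values was not tested. The Gapdh difference of its day 2 array was 0.23. Without that array the Anxa2 difference between genotypes on day 2 was 2.91.

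The gap between genotypes was smaller after resection for Anxa2, but the change in the gap did not pass the test. The day 2 response in KO minus that in control was −2.02 ± 0.65 (SE) for Anxa2 (adjusted p = 0.197), −1.33 ± 0.62 for Anxa1 (0.333) and −1.12 ± 0.48 for Anxa5 (0.301). On day 6 it was −1.86 ± 0.65 for Anxa2 (adjusted p = 0.559), −1.69 ± 0.62 for Anxa3 (0.617) and −0.69 ± 0.48 for Anxa5 (1.0). On both days 0 of 7 annexins were called by limma, beside 0% of all genes on day 2 and 0.164% on day 6. At an unadjusted p under 0.05 there were 3 annexins on day 2 and 2 on day 6, beside 14.6% and 5.36% of all genes. These responses share the day 0 arrays that enter the choice of the family.

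Which annexins follow Anxa5 and Anxa2 was described by the root mean square distance between log2 profiles over all 21 arrays, after each gene was centred on its own mean. A gene with a flat profile lay 2.13 from Anxa5 and 1.70 from Anxa2. Anxa2 was the nearest annexin to Anxa5, at 0.768, rank 11 of 7319 genes. Anxa3 followed at 1.56 (rank 171) and Anxa1 at 1.60 (rank 190), then Anxa7 at 1.82 (rank 460), Anxa6 at 1.88 (rank 596) and Anxa4 at 1.94 (rank 825). From Anxa2, Anxa5 ranked 16, Anxa1 110, Anxa3 132, Anxa7 448, Anxa6 699 and Anxa4 970. From Anxa5, all 5 annexins other than Anxa2 thus lay nearer to the 2.13 of a flat gene than to 0.768, Anxa1 and Anxa3 included. Anxa3 and Anxa1 were still within the nearest 2.34% and 2.6% of genes. Profiles were not scaled, so a gene of the same shape with smaller changes also lies near a flat gene. The distance therefore does not show whether the shapes differ. The control day 0 values of Anxa3 are near background, so the size of its change is a bound. From Anxa2, Anxa1 lay at 1.07 and Anxa3 at 1.11, nearer to the 0.768 of Anxa5 than to the 1.70 of a flat gene. Anxa7 at 1.39, Anxa6 at 1.49 and Anxa4 at 1.54 lay nearer to the flat gene. Without the 3 arrays of high Gapdh difference, Anxa2 ranked 17 from Anxa5 and Anxa5 ranked 26 from Anxa2, and Anxa6 moved to rank 1071 from Anxa2. The distance holds the genotype difference that chose the family, so the ranks are a description.

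**Figure D4:**
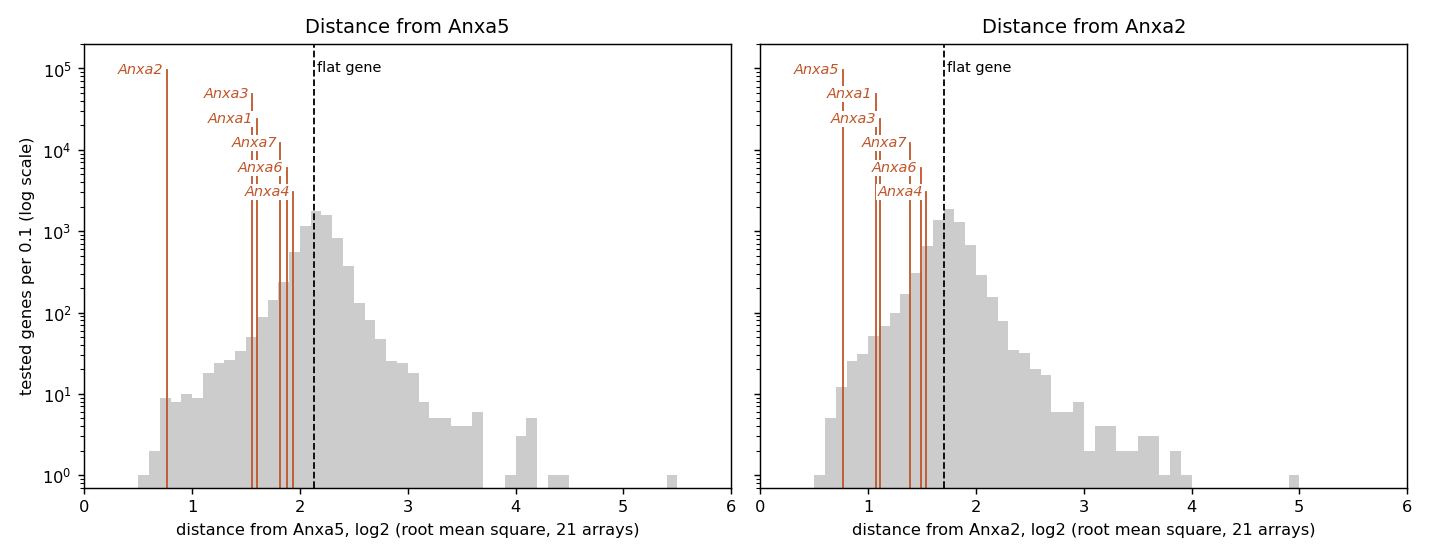
Number of tested genes (y axis, log scale) by distance of their profile from Anxa5 (left) and from Anxa2 (right), as root mean square log2 difference over 21 arrays (x axis). Red lines are the other annexins and the dashed line is a flat gene. Anxa2 lies 0.768 from Anxa5, far from the bulk of genes, while Anxa4, Anxa6 and Anxa7 lie close to the flat gene.

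The 10 genes nearest to Anxa5 were Gipc2, Mmp12, Uap1l1, Casp12, Lum, Mgp, Bicc1, Smoc2, Casp4 and Sox4. All of them but Lum had a control group wholly at or under log2 4, near background. Mmp12, Bicc1 and Smoc2 had every control group there, so they passed the filter through KO arrays only. Mmp12 is the macrophage elastase, Lum and Mgp encode the matrix proteins lumican and matrix Gla protein, and Casp12 and Casp4 are inflammatory caspases. Gipc2, a PDZ-domain protein, was the closest at 0.537, with KO minus control differences of 3.57 ± 0.26 (SE) on day 0, 3.61 ± 0.29 on day 2 and 3.55 ± 0.29 on day 6. On days 0 and 2 none of its control values exceeded log2 4, so these differences are bounds there. The 10 nearest to Anxa2 were Nid1, Acot9, Rtn4, Ppl, Lum, Ccdc80, Lgals1, Col3a1, Bicc1 and Uap1l1. Of these, Acot9, Ppl, Bicc1 and Uap1l1 had a control group wholly at or under log2 4. Nid1 encodes the basement membrane protein nidogen, at 0.552, with differences of 3.74 ± 0.45, 2.32 ± 0.52 and 2.28 ± 0.52 on days 0, 2 and 6. Lgals1 encodes galectin 1, a lectin of mesenchymal cells, with differences of 3.04 ± 0.38, 1.41 ± 0.44 and 0.78 ± 0.44. Lum, Bicc1 and Uap1l1 stood on both lists of 10.

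Among the 6 KO livers of day 0, the level of an annexin was not related to that of Anxa5 or Anxa2 past the threshold. Of 11 relations, 0 passed after Benjamini-Hochberg adjustment by an exact permutation test (two-sided). The closest were Anxa2 with Anxa7 (Pearson r = −0.84, exact p = 0.0472, adjusted 0.367, and Spearman rho = −0.75, exact p = 0.111, adjusted 0.642) and Anxa5 with Anxa3 (r = −0.76, exact p = 0.0667, adjusted 0.367, and rho = −0.71, exact p = 0.136, adjusted 0.642). Without the 2 mice farthest from the median of Anxa2 (250 and 254), the first was −0.26 over 4 mice, a narrower range of Anxa2. Without any 1 mouse the first was −0.89 to −0.78. Without mice 250 and 312, the second was −0.94 over 4 mice. For Anxa5 with Anxa2 the values were r = 0.12 (exact p = 0.801) and rho = −0.03 (exact p = 1.0), and r was −0.94 without mice 250 and 312. The values of Anxa5 spanned 11.62 to 11.90 in these livers.

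Where a gene has several probe sets, the one with the highest mean stands for it, and the others did not always follow. The second probe set of Anxa6 was called on day 2 when every probe set was tested, at 3.00 ± 0.55 (adjusted p = 0.00643). Its control values that day were 4.19, 6.26 and 2.79 in mice 263, 264 and 265, and its KO values were 7.29, 7.66 and 7.30. The 2 low control values are those of the arrays with the high Gapdh difference, and whether the shortened RNA sets this difference was not tested. The second probe set of Anxa4 differed by 1.13 ± 0.39 on day 2 (adjusted p = 0.0822). For Anxa7, a second probe set was also higher in KO (0.65 ± 0.18 on day 0), and the third was not (−0.15 ± 0.18). The 2 other probe sets of Anxa2 stayed under log2 4 on all arrays.

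The partners of annexins were described from lists chosen with earlier results known, as counts beside the shares of all genes. S100a10, the light chain of the Anxa2 tetramer, was high in all groups, with control values of 11.18, 10.10 and 10.26 on day 0 and KO values from 11.29 to 12.19. Its differences were 1.18 ± 0.30 (SE) on day 0, −0.28 ± 0.35 on day 2 (adjusted p = 0.663) and 0.20 ± 0.35 on day 6 (adjusted p = 0.885). Whether the gaps of S100a10 and Anxa2 differ was not tested. S100a6, a calcium sensor that binds several annexins, had control values of 3.48, 3.17 and 3.10 on day 0 and KO values from 5.41 to 8.74. In controls S100a6 rose to 6.96, 7.94 and 7.51 on day 2, by 4.22 ± 0.67 (adjusted p = 0.00262), and was 2.72 ± 0.67 higher on day 6 than on day 0 (adjusted p = 0.0324). Since its day 0 values are under log2 4, both are bounds. The day 6 call of S100a6 ended without any 1 of the 6 control arrays of days 0 and 6 (adjusted p from 0.0591 to 0.118) and with no filter (0.0713). With the mouse as a fixed block both S100a6 calls ended, on day 2 (3.91, adjusted p = 0.0699) and on day 6 (2.83, 0.363). Ahnak, a large scaffold bound by the Anxa2 tetramer, rose in controls by 1.87 ± 0.47 on day 2 (adjusted p = 0.0212). That call ended without the day 0 array of mouse 263 (0.0532), 265 (0.0764) or 303 (0.0603), and without the day 2 array of mouse 265 (0.0849). It also ended with the mean of the Ahnak probe sets, where the difference was 0.54 (adjusted p = 0.0566), without the arrays of high Gapdh difference (1.79, 0.252), with array weights (0.0713) and with the fixed block (0.244).

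Of 8 listed binding partners 6 were tested, and 4, 0 and 0 were called higher in KO on days 0, 2 and 6, with medians of 1.08, 0.25 and 0.64. Of all genes, 6.79%, 2.75% and 1.24% were called higher in KO. In controls 2 of the 6 were called higher on day 2 and 1 on day 6, beside 9.51% and 2.86% of all genes in either direction. Of 6 genes of plasminogen activation 3 were tested, and 0 were called on days 2 and 6, beside 5.71% and 1.73% of all genes. Plat, the tissue plasminogen activator, differed by 1.29 ± 0.42 on day 2 (adjusted p = 0.0738) and by 1.60 ± 0.42 on day 6 (adjusted p = 0.0613), against control values at or under log2 4. Of the 2 receptors of annexin A1, Fpr2 was tested and differed by −0.40 ± 1.24 on day 2 (adjusted p = 0.880) and −0.69 ± 1.24 on day 6 (adjusted p = 0.888). Of 13 membrane repair genes 9 were tested. On days 0, 2 and 6 there were 0, 1 and 0 called, beside 9.66%, 5.71% and 1.73% of all genes. The 1 was Capns1, the calpain regulatory subunit, at 0.80 ± 0.21 on day 2 (adjusted p = 0.0346). Without the 3 arrays of high Gapdh difference it was 0.45 (adjusted p = 0.623). The Capns1 call also ended without KO mouse 254 (0.127) or 258 (0.116) or control mouse 263 (0.103). Median centring (0.061), array weights (0.131) and a fit of the 2 groups alone (0.365) ended it too.

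The genes that expose or bind phosphatidylserine, the lipid annexin A5 binds, included Mfge8, which was called on both later days. Of 12 listed 8 were tested, and 3, 2 and 1 were called higher in KO on days 0, 2 and 6. Of all genes, 6.79%, 2.75% and 1.24% were. Mfge8 encodes a secreted bridge between phosphatidylserine and integrins of phagocytes. Its control values were 4.60, 4.80 and 4.58 on day 0, 6.86, 5.99 and 5.99 on day 2 and 5.97, 5.36 and 5.96 on day 6. Its KO values ran from 7.28 to 8.09 on day 0, and were 7.62, 8.08 and 8.36 on day 2 and 7.17, 7.72 and 8.31 on day 6. The genotypes did not overlap on any day.

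Mfge8 differed by 3.00 ± 0.27 (SE) on day 0, by 1.74 ± 0.31 on day 2 (adjusted p = 0.00449) and by 1.97 ± 0.31 on day 6 (adjusted p = 0.00133). Each of the later calls held under 30 of 31 alternatives and ended in a fit of the 2 groups alone (adjusted p = 0.167 on day 2 and 0.0874 on day 6). Axl, a receptor tyrosine kinase for the phosphatidylserine bridge Gas6, differed by 2.47 ± 0.64 on day 2 (adjusted p = 0.0314). Its control values were 2.48, 4.32 and 2.42, and without the arrays of high Gapdh difference the Axl difference was 1.23 (adjusted p = 0.762). The Axl call also ended without KO mouse 254 (0.128) or 258 (0.0983), or control mouse 263 (0.0807) or 265 (0.0958). No filter (0.0505), array weights (0.176) and a fit of the 2 groups alone (0.215) ended it too. In controls Gas6 rose by 2.09 ± 0.41 on day 2 (adjusted p = 0.00598) and by 2.24 ± 0.41 on day 6 (adjusted p = 0.00659). The day 6 call of Gas6 ended with the mouse as a fixed block (3.30, adjusted p = 0.306) and in a fit of the 2 groups alone (0.137). Mfge8 rose by 1.62 ± 0.31 (adjusted p = 0.00561) and Plscr1, a calcium-responsive phospholipid scramblase, by 2.27 ± 0.55 (adjusted p = 0.0184) on day 2. The calls of Gas6, Mfge8 and Plscr1 on day 2 ended with the mouse as a fixed block and without the arrays of high Gapdh difference. Those of Mfge8 (adjusted p = 0.0852) and Plscr1 (0.164) also ended in a fit of the 2 groups alone. That of Plscr1 also ended without either array of mouse 265 (adjusted p = 0.0782 and 0.0923) or the day 0 array of mouse 303 (0.0612).

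**Figure D5:**
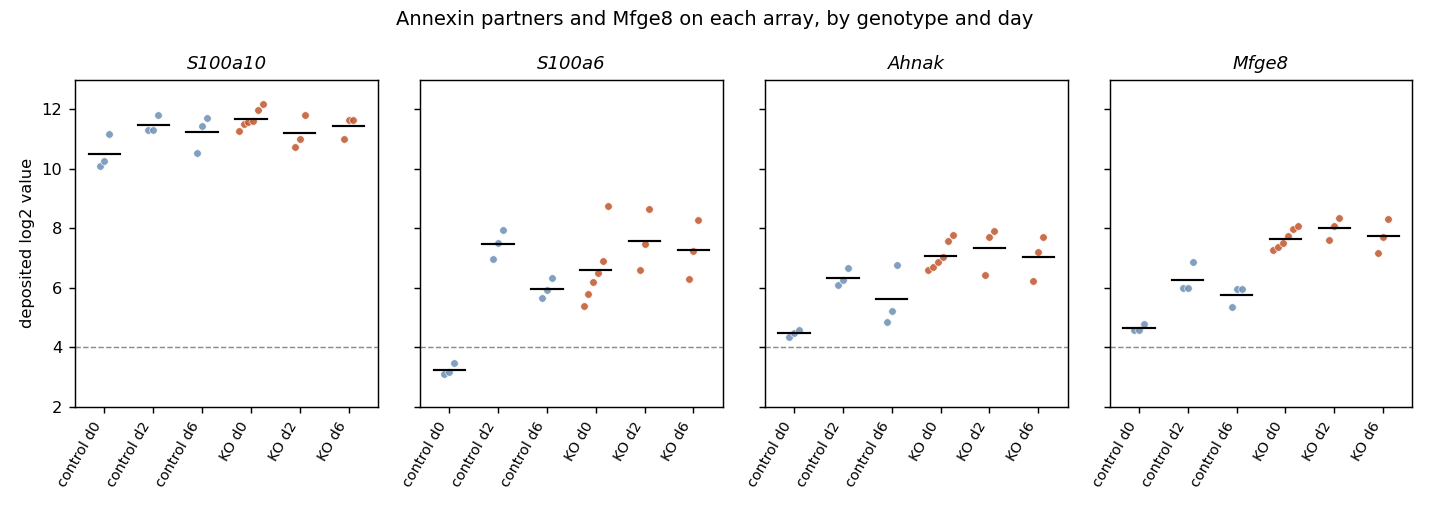
Deposited log2 values (y axis) of S100a10, S100a6, Ahnak and Mfge8 by genotype and day (x axis), where each point is 1 array, black bars are group means and the dashed line is log2 4. Mfge8 is higher on every KO array than on every control array, whereas S100a6 of control liver rises from day 0 to day 2 into the range of KO liver and Ahnak to its lower end.

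The 4 annexins that did not pass the filter stayed near background in nearly all samples. Anxa10 lay between 2.28 and 2.46. Anxa9 lay between 2.23 and 2.49 in control liver and reached 3.68 in KO liver. Anxa13 lay between 2.52 and 2.69 apart from 3.92 and 3.39 in KO day 0 mice 337 and 332. Anxa8 lay between 2.23 and 2.48 on 20 arrays and at 5.04 in KO mouse 337 on day 6, where its second probe set read 3.34 against at most 2.21 elsewhere.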

How the data were processed

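Total RNA was extracted with Trizol and labelled by a 3-prime IVT protocol, per the labels' protocols. The authors processed the signals with GCRMA, per the submitters' processing notes, with no version given, and the deposited values run from 1.33 to 15.54, from which the scale was taken as log2. The values of 21 arrays and 22690 probe sets were used as deposited. An array counts no molecules, so the number of arrays limits the precision.

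Gene symbols came from GEO's annotation of the platform: 20380 had 1 symbol, 691 several and 1555 none here, and 64 were array controls. The probe set with the highest mean stood for a gene, and genes above log2 4 on at least 3 arrays were tested. Comparisons were contrasts of 6 group means in 1 limma model (lmFit and eBayes, limma 3.58.1, R 4.3.3, 15 residual degrees of freedom), two-sided, with Benjamini-Hochberg adjustment over all 7320 genes tested and a threshold of 0.05. The model was tested on simulated data. Tests over mice were exact permutation tests (scipy 1.17.1, Python 3.11.15), and figures used matplotlib 3.10.9.

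The members and lists were chosen with earlier results of these data known. Genes were named by rule: every annexin A gene, the 10 tested genes nearest to Anxa5 and to Anxa2, Abcb4, and from each list of partners up to 4 members called on day 2 or 6, or else the member with the smallest p. S100a10, S100a6, Ahnak, Gas6 and Plscr1 were named besides this after their values were seen.

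The labels tie samples of 1 animal by mouse number. Over 9 pairs, deviations from the group mean correlated at −0.0568 to 0.303 (median 0.119), and 5 pairs exceeded 0.1. Fits with the mouse as a random block (correlation 0.108) or, for each genotype alone, as a fixed block were alternatives.

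The other alternatives left out the filter or set it at log2 6, averaged the probe sets of each gene or tested them singly, and used quantile normalization, median centring, eBayes with trend and robust, array weights, or the compared groups alone. Further fits were made without the arrays of high Gapdh difference and without each array in turn.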

Additional observations from a re-analysis of the deposited data

Results flagged for a closer look

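In the 6 KO livers of day 0, mouse 258 stood apart from the others in 2 annexins that lay under log2 4 on all of these arrays. Anxa9 read 3.68 in mouse 258 against 2.27 to 2.53 in the other 5 mice. Anxa8 read 2.48 in mouse 258 against 2.23 to 2.30 in the others. The gap to the nearest mouse, as a share of the range, was 0.816 and 0.720, above Dixon's 95% critical value for 6 samples. Of 11 annexins examined this way 2 exceeded it, and chance gives about 1 in 20. Values under log2 4 lie too close to background to be ordered, so nothing is read from either gap.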

How the results depend on the processing

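The directions and calls of Anxa5 on days 2 and 6 held under all 32 alternatives, and no called annexin changed sign. Since Anxa5 has only 1 probe set, the alternatives on probe sets could not change its values. Of 7 annexins, the 2 called between genotypes on day 2 became 1 with array weights, with the 2 groups alone and without the arrays of high Gapdh difference, 3 with the mean of probe sets, every probe set and quantile normalization, and 1 to 3 when 1 array was left out. The 5 of day 0 became 4 to 6 when 1 array was left out. On day 6 the 2 became 1 with the 2 groups alone and 1 to 2 when 1 array was left out. The 1 called in controls on day 2 against day 0 became 0 with no filter, with the 2 groups alone, with the mouse as a fixed replicate block and without the arrays of high Gapdh difference, 2 with every probe set, and 0 to 2 when 1 array was left out. The 1 called in controls on day 6 became 0 with no filter, the mean of probe sets, quantile normalization, the 2 groups alone and the fixed block, 2 with array weights, and 0 to 2 when 1 array was left out. For control day 6 against day 2 the 0 became 1 with every probe set. The mouse as a random block changed none of these counts. Anxa6 on day 2 passed with the mean of probe sets (1.17, adjusted p = 0.0155) and with quantile normalization (1.10, 0.0421). Over all genes, the 418 called on day 2 became 36 without the arrays of high Gapdh difference and 18 with the 2 groups alone, and the 696 called in controls on day 2 became 78 and 27. The 707 of day 0 became 1414 with array weights, and on day 6 the 127 between genotypes and 209 in controls became 275 and 571 with weights and 38 and 19 with the 2 groups alone. With 3 arrays a group, small differences could not be told from the spread between mice, and levels under log2 4 lie too close to background to be ordered.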

Other observations

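KO mouse 337 on day 6 held the highest value of the 21 arrays for Anxa5 (12.17), Anxa2 (10.91), Anxa8 (5.04), the second probe set of Anxa4 (8.82) and the second probe set of Anxa6 (7.93). Markers of the mesothelium, the cell layer that covers the liver surface, moved with this array: the mean of 4 of 5 listed markers was 4.78, against 2.46 to 3.47 on the other arrays. Msln was 7.0 there against 2.64 to 4.90 elsewhere, Upk3b was 5.92 against 2.32 to 3.93, and Wt1 was 4.06 against 2.70 to 4.76, while Krt14 stayed at 2.12. Their part in the annexin values of this array was not tested. The stellate cell marker mean of the array was 7.96 and its Gapdh difference was −0.35.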
